A study of Mus musculus with 40 samples.

Results

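Voltage-gated sodium and calcium channels and hyperpolarization-activated cyclic nucleotide-gated (HCN) channels set how neurons fire and release transmitter. The 30 genes described here encode sodium channel alpha subunits (Scn1a, Scn2a, Scn3a, Scn4a, Scn7a, Scn8a and Scn9a) and beta subunits (Scn2b, Scn3b and Scn4b), calcium channel alpha1 subunits (Cacna1a, Cacna1b, Cacna1c, Cacna1d, Cacna1e, Cacna1g, Cacna1h, Cacna1i and Cacna1s), alpha2delta subunits (Cacna2d1, Cacna2d2, Cacna2d3 and Cacna2d4) and beta subunits (Cacnb1, Cacnb2, Cacnb3 and Cacnb4), and Hcn2, Hcn3 and Hcn4. They were chosen by name as members of these families, and not by a measured value. All 30 were among the 40853 genes of the count table and all 30 were among the 28449 genes with enough reads to be tested.

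RNA was sequenced from the hippocampus of 40 mice (18 females, 22 males), which fall into 10 groups by their sex and by the virus they received. Adeno-associated virus was injected into the hippocampus on both sides. The H2A.Z KO mice (4 females and 4 males) received Cre recombinase under the Synapsin promoter, which acts in neurons, to delete the floxed genes of both isoforms of the histone variant H2A.Z. The groups with replacement received the same Cre together with Myc-tagged H2A.Z.1 under the CMV promoter: the WT form (4 females, 5 males), the KA form, whose N-terminal lysines were changed to alanine so that they cannot be acetylated (4 females, 4 males), or the KQ form, with glutamine in their place to mimic acetylation (3 females, 5 males). The Myc mice (3 females, 4 males) received the Myc tag alone, with no Cre. The labels call the deletion H2AZ_KD and give the Myc mice the genotype WT, while the methods describe floxed animals; the ages were not given in the sources used here.

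Library totals ran from 24342921 to 45982772 counts. H2az1, which encodes H2A.Z.1, stood at 31.0 ± 3.67 CPM (read counts scaled to a common library size) in the female KO mice and 32.2 ± 3.58 CPM in the female Myc mice, and at 31.5 ± 9.37 CPM in the male KO mice and 32.9 ± 4.38 CPM in the male Myc mice (SD), so the gene count did not show the deletion in this bulk tissue. H2az2 was not called lower either (adjusted p = 0.061 in females, with a positive fold change, and 0.35 in males; edgeR quasi-likelihood test). The paper reports lower H2az1 mRNA after Cre without replacement, and lower H2az2 mRNA after Cre with or without replacement. It proposes that the drop was small because bulk tissue is poorly suited to detecting a deletion limited to neurons. It also reports a strong loss of H2A.Z in cultured hippocampal neurons given Cre. Where the deleted segments lie was not given in the labels, so "KO" below means the mice labelled H2AZ_KD without a replacement form. The libraries of KO mice 14 and 33, KQ mouse 17 and WT mouse 20, all females, held Ttr, a choroid plexus gene, above 1000 CPM. Within groups, no library was a copy of another: between libraries of 1 group, chi-square over its degrees of freedom was 8.16 to 286, highest for female Myc mice 11 and 32. Libraries of different groups were not compared in this way.

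Sodium channels are built from a pore-forming alpha subunit that opens on depolarization and carries the upstroke of the action potential, with beta subunits that anchor it and tune its kinetics. Calcium channels join a pore-forming alpha1 subunit to a cytoplasmic beta subunit, which brings it to the membrane, and to an extracellular alpha2delta subunit, which raises its density at synapses. P/Q-type (Cacna1a) and N-type (Cacna1b) channels act mainly at nerve terminals and form the Cav2 family with R-type channels (Cacna1e). L-type channels (Cacna1c, Cacna1d and, in skeletal muscle, Cacna1s) couple depolarization to gene transcription or contraction. T-type channels (Cacna1g, Cacna1h and Cacna1i) open near rest and drive bursts. HCN channels open on hyperpolarization and pass the pacemaker current.

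The promoters of the members ranged from few to many CG dinucleotides. RefSeq promoter windows (250 bases before to 50 after the start, build GRCm38.p6) were at hand for 23 of the 30 members. Those of 3 members are shown, Scn2b and Cacna2d3, which were lower in the KO mice, and Cacna1s, which was higher. In both sexes their KO and Myc mice did not overlap. Scn1a, Scn8a, Cacna1b, Cacnb1 and Cacnb3 also met this and had windows, so the 3 are a choice among such genes. Capitals mark CG dinucleotides, and each window reads 5' to 3' on the gene's strand: chr9:45117626-45117925 (+) for Scn2b, chr14:29721815-29722114 (-) for Cacna2d3 and chr1:136052561-136052860 (+) for Cacna1s.
Scn2b: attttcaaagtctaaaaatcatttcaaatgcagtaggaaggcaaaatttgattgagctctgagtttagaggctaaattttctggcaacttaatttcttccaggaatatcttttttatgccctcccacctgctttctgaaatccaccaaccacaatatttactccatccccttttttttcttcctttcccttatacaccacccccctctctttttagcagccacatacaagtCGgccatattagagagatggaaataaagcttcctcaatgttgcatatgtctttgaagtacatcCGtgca
Cacna2d3: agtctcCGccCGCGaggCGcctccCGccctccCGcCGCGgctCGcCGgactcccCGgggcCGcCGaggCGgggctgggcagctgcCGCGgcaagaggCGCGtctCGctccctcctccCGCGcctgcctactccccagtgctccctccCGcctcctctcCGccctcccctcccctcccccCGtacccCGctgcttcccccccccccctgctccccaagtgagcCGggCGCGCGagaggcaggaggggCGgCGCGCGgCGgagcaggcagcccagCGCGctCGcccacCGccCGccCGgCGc
Cacna1s: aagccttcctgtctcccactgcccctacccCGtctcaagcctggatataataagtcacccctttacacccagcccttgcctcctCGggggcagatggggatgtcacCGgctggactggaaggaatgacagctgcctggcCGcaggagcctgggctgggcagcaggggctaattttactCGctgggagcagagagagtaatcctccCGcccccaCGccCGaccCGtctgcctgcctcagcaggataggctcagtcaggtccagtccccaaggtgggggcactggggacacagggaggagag
The Scn2b window held 2 CG dinucleotides and the Cacna2d3 window 41, although both genes fell. The Cacna1s window held 9. Of all 32851 promoter windows, 14.1% held fewer CG than that of Scn2b, 96.5% fewer than that of Cacna2d3 and 54.2% fewer than that of Cacna1s; the median window held 7.

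In the Myc mice, levels per kilobase of exon ran from 0.00678 to 67.5. They are given as CPM per kb, the mean ± SD over 7 Myc mice of both sexes, because counts grow with transcript length. The length used merges all annotated exons of a gene and can exceed that of the transcripts present, so the order depends in part on annotation. The beta subunits Scn2b (67.5 ± 3.13 CPM per kb) and Scn3b (52.3 ± 3.53) stood above all other members without overlap between mice. Below them, Cacnb3 (31.8 ± 3.13) and Hcn2 (28.2 ± 2.56), the main HCN gene of this set, overlapped with each other. Scn8a at 26.3 ± 1.11 was the highest alpha subunit, above Scn2a at 21.2 ± 2.27 and Scn1a at 11.7 ± 1.24. Among the alpha1 subunits Cacna1e led at 19.3 ± 2.03, ahead of Cacna1h at 9.49 ± 1.40, Cacna1b at 7.84 ± 0.521 and Cacna1a at 5.27 ± 0.588. From Cacna2d1 (12.4 ± 0.800) down to Cacna1g (2.55 ± 0.412) each gene overlapped with the next lower one. A gap followed to Hcn3 (1.78 ± 0.164), and 6 members lay far below: Hcn4 (0.291 ± 0.0604), Scn9a (0.226 ± 0.0634), Cacna2d4 (0.200 ± 0.0362), Scn7a (0.159 ± 0.0617), Cacna1s (0.0727 ± 0.0204) and Scn4a (0.00678 ± 0.00558). Scn4a and Cacna1s encode the sodium and calcium channel of skeletal muscle. No member differed between female and male Myc mice (adjusted p of at least 0.94; none at an unadjusted p under 0.05 either, and none by DESeq2), where 0.0457% of all genes tested were called.

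**Figure D1:**
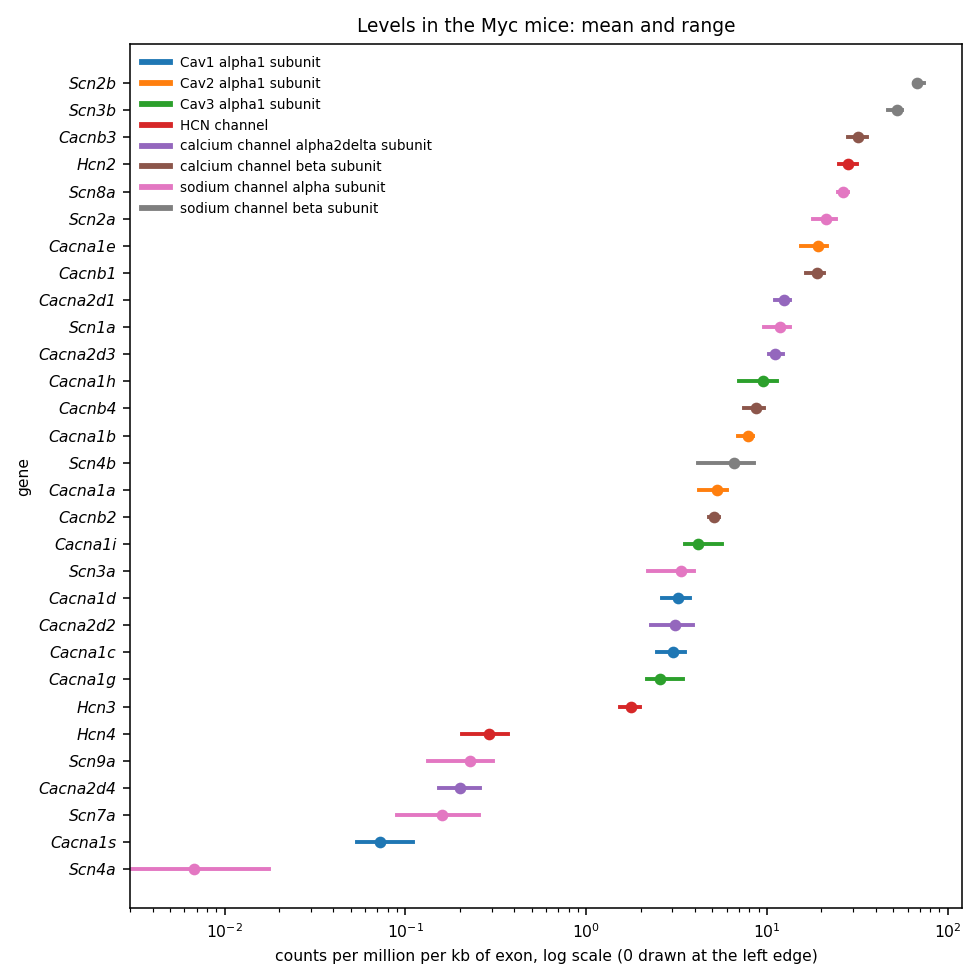
Levels of the 30 members in the 7 Myc mice, in CPM per kb of exon on a log axis; dots are means and bars run from the lowest to the highest mouse, coloured by family. Scn2b and Scn3b stand highest, and Cacna1s and Scn4a lowest.

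Most of these genes fell in the KO mice. In females 20 of the 30 were lower in KO than in Myc mice and 3 were higher, against 16.5% of all genes tested lower and 18.1% higher. In males 19 were lower and 2 higher, against 14.4% of all genes lower and 17.2% higher (edgeR, Benjamini-Hochberg adjusted p under 0.05). The median log2 fold change of the 30 was -0.55 in females and -0.47 in males, while that of all genes tested was 0.00 and 0.03. Both directions were called in the same numbers by DESeq2. Changes were moderate, and only 4 members in females and 3 in males moved by more than 1 on the log2 scale. In bulk tissue fewer cells of a type and less RNA per cell cannot be told apart.

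Most members called in 1 sex were called in the same direction in the other. The share of all genes tested that was called in both sexes was not counted, so this sharing is not shown to be particular to these genes. The 16 lower in both were Scn1a, Scn2a, Scn3a, Scn8a, Scn2b, Scn3b, Cacna1a, Cacna1b, Cacna1c, Cacna1e, Cacna2d1, Cacna2d3 and all 4 Cacnb genes, and Cacna1s and Cacna2d4 were higher in both. Scn9a, Cacna1g, Cacna1i and Hcn3 were called lower in females only and Scn4b, Cacna1h and Cacna2d2 in males only, with Scn4a called higher in females only. Scn7a, Cacna1d, Hcn2 and Hcn4 were called in neither sex. The difference between the sexes in the KO effect was called for none of the 30 and for 0% of all genes tested; 1 member, Scn9a, and 1569 genes in all were under an unadjusted p of 0.05, and DESeq2 called no member and 30 genes in all. The calls that only 1 sex reached are therefore not shown to differ between the sexes. Of the 16 genes lower in both sexes, 11 kept their call in both sexes under every alternative run: Scn1a, Scn2a, Scn8a, Scn2b, Cacna1a, Cacna1b, Cacna1c, Cacna2d3, Cacnb1, Cacnb2 and Cacnb3.

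**Figure D2:**
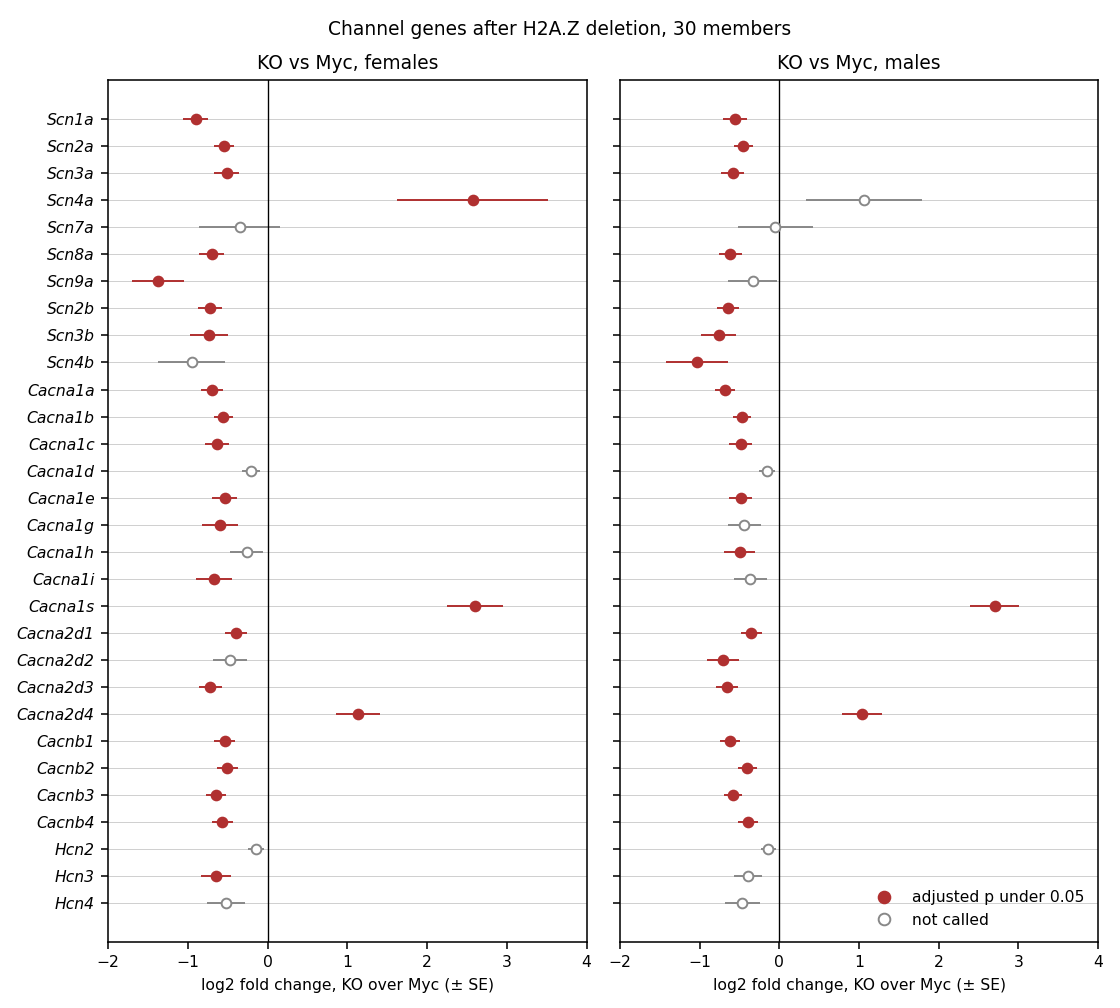
Log2 fold change of each member, KO over Myc, in females (left) and males (right); bars are ± 1 standard error of the edgeR fit, filled dots are called at adjusted p under 0.05 and open dots are not. In females 20 members are called lower and 3 higher, and in males 19 lower and 2 higher, with Cacna1s far to the right in both.

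Among the sodium channel alpha subunits, the fall was shared by the genes with high levels in the hippocampus. Scn1a, the main sodium channel of fast-spiking inhibitory neurons, had 54.5, 62.6, 95.1 and 73.9 CPM in the female KO mice, against 112, 134 and 155 CPM in the female Myc mice. The groups did not overlap, and Scn1a fell by 46.5% (log2 fold change -0.90 ± 0.16 SE, adjusted p = 2.76e-05). In males it had 101, 66.7, 97.4 and 111 CPM in KO mice, against 145, 123, 139 and 144 CPM in Myc mice, again without overlap (-0.55 ± 0.15, adjusted p = 0.0034). Scn8a, the channel of the mature axon initial segment, had 192, 211, 315 and 296 CPM in the female KO mice, against 412, 392 and 432 CPM in the female Myc mice. It fell by 0.70 ± 0.16 on the log2 scale in females (adjusted p = 0.00052). In males Scn8a had 229, 220, 300 and 345 CPM in KO mice, against 401, 416, 413 and 443 CPM in Myc mice, and it fell by 0.61 ± 0.15 (adjusted p = 0.0011). Neither sex overlapped.

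Scn2a, the channel of excitatory axons that dominates early in development, had 147 to 209 CPM in the female KO mice, against 252 to 265 CPM in the female Myc mice (-0.55 ± 0.13, adjusted p = 0.0010). Its male KO mice, at 162 to 236 CPM, just overlapped with the Myc mice, at 234 to 313 CPM (-0.45 ± 0.12, adjusted p = 0.0033). Scn3a, which is highest before birth, had 24.5 to 33.3 CPM in the female KO mice, against 29.6 to 50.7 CPM in the female Myc mice (-0.51 ± 0.16, adjusted p = 0.010). This call was lost without Myc mouse 11 or 32, without the mice above 1000 CPM of Ttr and with only the compared groups in the fit (adjusted p of 0.0518 to 0.126). In males Scn3a had 30.0 to 32.8 CPM in KO mice, all below the 40.8 to 53.0 CPM of the Myc mice (-0.59 ± 0.15, adjusted p = 0.0019). Scn9a, best known from pain-sensing neurons, had 1.02, 1.45, 1.64 and 1.44 CPM in the female KO mice, against 3.21, 3.72 and 3.87 CPM in the female Myc mice. It fell by 1.37 ± 0.33 on the log2 scale (adjusted p = 0.0011), the largest fall of the set in females. The male KO mice had 1.54, 1.17, 1.15 and 3.67 CPM, against 2.69, 1.68, 2.81 and 2.10 CPM in the Myc mice (-0.33 ± 0.30, adjusted p = 0.45). The highest of these was KO mouse 42; without it Scn9a was called lower in males too (adjusted p = 0.021).

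The remaining alpha subunits were near the limit of detection. Scn7a, a sodium-sensing relative found in glia, had 0.681 to 1.72 CPM in the female KO mice and 0.809 to 1.90 CPM in the Myc mice, and it was not called in either sex. The sign of its fold change turned without Myc mouse 31 in females and without KO mouse 3, 4 or 21 or Myc mouse 41 in males. Scn4a had 7, 6, 10 and 8 reads in the female KO mice, against 2, 1 and 0 reads in the Myc mice. It was called higher (2.57 ± 0.95, adjusted p = 0.032), a fitted value that depends on the prior count, and the call was lost without any of Myc mice 11, 31 and 32 or KO mouse 33, or without the mice above 1000 CPM of Ttr (adjusted p of up to 0.114). In males it had 1, 5, 15 and 4 reads in KO mice, against 3, 2, 1 and 6 reads in Myc mice (adjusted p = 0.29).

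Scn1a, Scn2a, Scn3a, Scn7a and Scn9a lie in 1 cluster on chromosome 2 (GRCm39, from 65287462 in Scn3a to 66615367 in Scn7a). Of these, Scn7a was the only gene not called lower in either sex. Of the summed sodium channel alpha level per kb, Scn8a took 41.6% in the female KO mice and 42.7% in the Myc mice, Scn2a 35.9% in KO and 32.7% in Myc mice, and Scn1a 16.0% in KO and 18.8% in Myc mice. Scn9a took 0.287% in KO and 0.464% in Myc females, and Scn4a 0.0636% in KO and 0.00573% in Myc females. In males the shares were 39.1% in KO and 41.3% in Myc mice for Scn8a, 36.5% in KO and 34.2% in Myc mice for Scn2a, and 18.3% in KO and 18.5% in Myc mice for Scn1a.

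Of the 3 sodium channel beta subunits, 2 were called lower in females and all 3 in males. Scn2b, which is bound to the alpha subunit by a disulfide bridge, had 123, 159, 227 and 234 CPM in the female KO mice, against 304, 309 and 308 CPM in the female Myc mice. It fell by 39.5% (-0.72 ± 0.15, adjusted p = 0.00017). In males it had 208, 147, 235 and 229 CPM in KO mice, against 315, 345, 302 and 317 CPM in Myc mice (-0.64 ± 0.14, adjusted p = 0.00032). In both sexes every KO mouse lay below every Myc mouse. Scn3b had 162 to 261 CPM in the female KO mice, against 334 to 384 CPM in the Myc mice (-0.74 ± 0.24, adjusted p = 0.016), a call lost without Myc mouse 11 or KO mouse 13 or 14 (adjusted p of 0.0554 to 0.0669). In males it had 149 to 303 CPM in KO mice, against 379 to 402 CPM in Myc mice (-0.76 ± 0.22, adjusted p = 0.0087). Scn4b, which promotes resurgent current, had 5.98 to 21.6 CPM in the female KO mice and 21.2 to 32.9 CPM in the Myc mice (-0.95 ± 0.42, adjusted p = 0.078). In males it had 8.45 to 24.9 CPM in KO mice, against 31.1 to 43.0 CPM in Myc mice, and was called lower (-1.03 ± 0.39, adjusted p = 0.042). That call was lost without KO mouse 4 or 42 or Myc mouse 22, 23 or 41, with ranges of the sample number as a covariate and with every gene that had a count (adjusted p of 0.0503 to 0.159).

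The alpha1 subunits of the Cav2 calcium channels all fell in both sexes. Cacna1a, the P/Q-type pore that triggers fast transmitter release, had 53.3, 48.2, 69.9 and 71.7 CPM in the female KO mice, against 99.0, 80.3 and 116 CPM in the female Myc mice (-0.69 ± 0.14, adjusted p = 0.00015). Among males it had 57.3, 53.5, 70.0 and 75.3 CPM in KO mice, against 101, 100, 98.5 and 111 CPM in Myc mice (-0.68 ± 0.13, adjusted p = 7.51e-05). The groups did not overlap in either sex, and the fall was 38.2% in females and 37.6% in males. Cacna1b, the N-type pore, had 46.6 to 65.8 CPM in the female KO mice, against 74.3 to 82.4 CPM in the Myc mice (-0.56 ± 0.12, adjusted p = 0.00045). In males Cacna1b had 51.7 to 64.6 CPM in KO mice, against 68.8 to 83.6 CPM in Myc mice (-0.47 ± 0.11, adjusted p = 0.0015). Cacna1e, the R-type pore, had 276 to 410 CPM in the female KO mice and 398 to 548 CPM in the Myc mice, where the ranges overlapped (-0.54 ± 0.15, adjusted p = 0.0057; 0.056 with only the compared groups in the fit). For males it had 299 to 447 CPM in KO mice, below the 461 to 536 CPM of the Myc mice (-0.48 ± 0.14, adjusted p = 0.0084).

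The L-type genes went different ways. Cacna1c, the main L-type pore of brain and heart, fell: it had 40.3 to 49.2 CPM in the female KO mice, against 54.9 to 78.3 CPM in the Myc mice (-0.64 ± 0.15, adjusted p = 0.0010). In males 3 KO mice had 40.2 to 43.7 CPM and KO mouse 42 had 63.8 CPM, against 59.6 to 72.2 CPM in Myc mice (-0.49 ± 0.14, adjusted p = 0.0068). Cacna1d, which opens at more negative voltages, was not called: it had 38.2 to 44.8 CPM in the female KO mice and 40.1 to 56.8 CPM in the Myc mice (-0.21 ± 0.11, adjusted p = 0.14), though without Myc mouse 31 it was called lower (adjusted p = 0.031). In males its fold change was -0.15 ± 0.10 (adjusted p = 0.28).

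Cacna1s went against the rest. This gene encodes the voltage sensor of skeletal muscle contraction and had few reads here. It had 5.31, 3.70, 1.82 and 3.02 CPM in the female KO mice, from 59 to 197 reads, against 0.725, 0.435 and 0.511 CPM, or 11 to 30 reads, in the Myc mice. In the male KO mice it had 3.78, 3.84, 4.58 and 3.67 CPM, against 0.603, 0.889, 0.498 and 0.456 CPM in the Myc mice. The groups were far apart in both sexes, and Cacna1s was 6.08-fold higher in females (2.60 ± 0.35, adjusted p = 4.08e-07) and 6.51-fold higher in males (2.70 ± 0.31, adjusted p = 8.65e-09). Its share of the summed alpha1 level per kb was 1.15% in KO and 0.124% in Myc females, and 1.24% in KO and 0.139% in Myc males. Cacna1s lies on chromosome 1 (135980259 to 136047560, plus strand, GRCm39), where the antisense RNAs Gm37759 and Gm69845 overlap 16.5% and 4.36% of its exon length. The strand setting of the counting was not stated, so that reads of these genes cannot be told apart from those of Cacna1s.

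Other muscle genes did not rise as a group. Of 10 skeletal muscle genes, 1 was higher (Tnni2) and 1 lower (Actn3) in KO mice in each sex, the summed level ran from 23.0 to 31.4 CPM in the female KO mice and 25.0 to 42.3 CPM in the Myc mice, and Ckm, which defines muscle, reached at most 0.534 CPM in any of the 40 mice. In males the sum ran from 20.3 to 32.9 CPM in KO mice and 32.9 to 37.0 CPM in Myc mice. T cell genes moved with Cacna1s: all 10 were higher in the KO mice of both sexes, with sums of 24.6 to 150 CPM in KO and 2.98 to 6.40 CPM in Myc females, and 57.4 to 212 CPM in KO and 2.67 to 3.29 CPM in Myc males. Their part in the Cacna1s values was not tested.

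The T-type genes passed the threshold in 1 sex each. Cacna1g had 18.0, 17.8, 22.4 and 17.0 CPM in the female KO mice, against 24.4, 35.5 and 25.7 CPM in the Myc mice (-0.60 ± 0.22, adjusted p = 0.036). This call was lost without KO mouse 13, 14 or 34 or Myc mouse 31, without the mice above 1000 CPM of Ttr and with every gene that had a count (adjusted p of 0.0505 to 0.219). In male mice it had 15.6, 20.6, 17.7 and 19.6 CPM in KO mice, against 26.8, 23.9, 26.2 and 22.5 CPM in Myc mice, and though these did not overlap it was not called (-0.44 ± 0.21, adjusted p = 0.11). Cacna1h had 74.7 to 90.1 CPM in the female KO mice and 77.0 to 125 CPM in the Myc mice (-0.26 ± 0.21, adjusted p = 0.34). In males Cacna1h had 56.9 to 86.8 CPM in KO mice, against 103 to 113 CPM in Myc mice (-0.50 ± 0.19, adjusted p = 0.044). The male call was lost without any of Myc mice 1, 22, 23 and 41 or KO mice 3 and 42, with ranges of the sample number as a covariate, with DESeq2 size factors and with every gene that had a count (adjusted p of 0.052 to 0.162). Cacna1i had 21.1 to 32.5 CPM in the female KO mice, against 39.5 to 55.7 CPM in the Myc mice (-0.67 ± 0.22, adjusted p = 0.018), a call lost without KO mouse 13 or Myc mouse 31 (adjusted p = 0.0761 and 0.13). In males it was not called (-0.36 ± 0.21, adjusted p = 0.20).

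Of the 4 alpha2delta genes, 2 were called lower and 1 higher in females, and 3 lower and 1 higher in males. Cacna2d3 had 50.4, 51.9, 82.4 and 83.9 CPM in the female KO mice, against 110, 116 and 105 CPM in the Myc mice (-0.72 ± 0.15, adjusted p = 0.00026). Among males it had 68.1, 58.6, 80.5 and 83.2 CPM in KO mice, against 110, 125, 105 and 118 CPM in Myc mice (-0.66 ± 0.14, adjusted p = 0.00033). Every KO mouse lay below every Myc mouse of its sex. Cacna2d1, the target of gabapentin together with Cacna2d2, had 171 to 238 CPM in the female KO mice, against 245 to 295 CPM in the Myc mice (-0.40 ± 0.14, adjusted p = 0.025). For males it had 173 to 282 CPM in KO mice and 268 to 297 CPM in Myc mice (-0.35 ± 0.13, adjusted p = 0.035). Both calls were lost with only the compared groups in the fit and when single mice were left out, in females also without the mice above 1000 CPM of Ttr. These were in females Myc mouse 11 or 32 or KO mouse 13 or 14 (adjusted p of up to 0.118) and in males KO mouse 3, 4 or 21 or Myc mouse 1, 23 or 41 (up to 0.174). Cacna2d2 had 14.1 to 21.7 CPM in the female KO mice and 20.5 to 28.3 CPM in the Myc mice (-0.48 ± 0.21, adjusted p = 0.077). In male mice it had 12.6 to 19.5 CPM in KO mice and 18.2 to 31.0 CPM in Myc mice, and was called lower (-0.71 ± 0.20, adjusted p = 0.0054).

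Cacna2d4, the alpha2delta subunit of photoreceptor terminals, rose. It had 6.73, 4.73, 2.62 and 3.30 CPM in the female KO mice, against 1.67, 1.86 and 2.47 CPM in the Myc mice (1.13 ± 0.28, adjusted p = 0.0015). Among males it had 4.54, 4.77, 2.64 and 3.24 CPM in KO mice, against 1.71, 2.22, 1.47 and 2.00 CPM in Myc mice (1.04 ± 0.25, adjusted p = 0.0013). No KO mouse lay within the Myc range. Its share of the summed alpha2delta level per kb was 2.66% in KO and 0.793% in Myc females, and 2.16% in KO and 0.713% in Myc males.

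All 4 Cacnb genes fell in both sexes. Cacnb3, the highest of them per kb, had 89.7, 97.7, 112 and 123 CPM in the female KO mice, against 175, 174 and 145 CPM in the Myc mice (-0.64 ± 0.13, adjusted p = 0.00011). For males it had 101, 93.4, 114 and 112 CPM in KO mice, against 142, 180, 155 and 150 CPM in Myc mice (-0.58 ± 0.12, adjusted p = 0.00018). Cacnb1, also the beta subunit of muscle, had 58.5 to 85.3 CPM in the female KO mice, against 95.0 to 119 CPM in the Myc mice (-0.54 ± 0.13, adjusted p = 0.0013). Cacnb1 had 60.9 to 80.6 CPM in the male KO mice, against 105 to 119 CPM in the Myc mice (-0.62 ± 0.12, adjusted p = 0.00012). Neither gene overlapped between KO and Myc in either sex. Cacnb2 had 43.5 to 61.8 CPM in the female KO mice, against 71.6 to 77.0 CPM in the Myc mice (-0.51 ± 0.13, adjusted p = 0.0019). In males Cacnb2 had 48.2 to 73.5 CPM in KO mice and 69.7 to 79.2 CPM in Myc mice (-0.40 ± 0.12, adjusted p = 0.0077). Cacnb4, mutated in the lethargic mouse, had 42.0 to 65.2 CPM in the female KO mice, against 68.1 to 84.8 CPM in the Myc mice (-0.57 ± 0.13, adjusted p = 0.0011). In male mice it had 44.5 to 79.1 CPM in KO mice and 73.2 to 87.7 CPM in Myc mice (-0.40 ± 0.13, adjusted p = 0.013), a call lost without KO mouse 4 and with only the compared groups in the fit (adjusted p of 0.0748 to 0.11). The antisense RNA A430018G15Rik overlaps 15.7% of the exon length of Cacnb4.

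Of the 3 HCN genes, Hcn3 in females was the only call in KO against Myc. Hcn2, which carries over 90% of the summed HCN level per kb in every group shown here, had 84.0 to 95.2 CPM in the female KO mice and 88.7 to 111 CPM in the Myc mice (-0.14 ± 0.10, adjusted p = 0.29). Among males it had 81.9 to 96.3 CPM in KO mice and 89.7 to 110 CPM in Myc mice (-0.14 ± 0.09, adjusted p = 0.28). Hcn3 had 5.17, 5.11, 6.73 and 6.87 CPM in the female KO mice, against 8.29, 9.81 and 9.88 CPM in the Myc mice (-0.64 ± 0.19, adjusted p = 0.0070). For males it had 5.92, 9.19, 5.26 and 5.19 CPM in KO mice, against 8.80, 7.62, 8.47 and 8.80 CPM in Myc mice (-0.40 ± 0.17, adjusted p = 0.082). KO mouse 4 stood apart at 9.19 CPM, and without it Hcn3 was called lower in males (adjusted p = 0.00657). Pklr overlaps 25.0% of the exon length of Hcn3 on the other strand. Hcn4, the slow pacemaker channel, had 0.754 to 1.55 CPM in the female KO mice and 1.377 to 2.02 CPM in the Myc mice (-0.52 ± 0.24, adjusted p = 0.088). In males it was 1.23 to 1.94 CPM in KO mice and 1.56 to 2.48 CPM in Myc mice (-0.46 ± 0.22, adjusted p = 0.10).

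**Figure D3:**
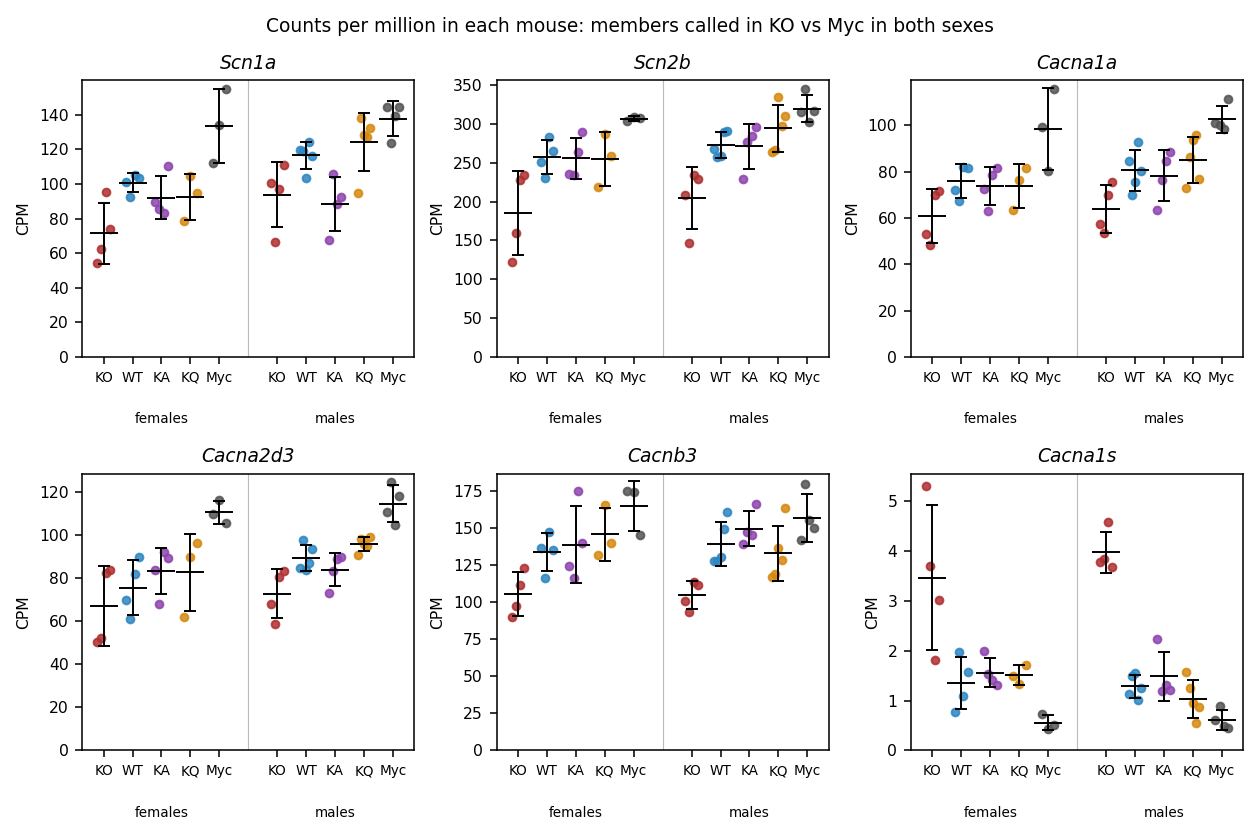
CPM in each mouse for 6 members called in KO vs Myc in both sexes, with KO, WT, KA, KQ and Myc from left to right for females and then males; dots are mice and black bars are the mean ± SD. Scn1a, Scn2b, Cacna1a, Cacna2d3 and Cacnb3 are low in KO, and Cacna1s is high in KO (1.82 to 5.31 CPM in females) with the replacement groups between KO and Myc in mean.

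Markers of other cell types moved in the same comparison. Of 10 general neuronal genes 9 were lower in KO females and 6 in KO males, with a median log2 fold change of -0.61 and -0.52, close in size to the medians of the channel genes. Their summed level ran from 4142 to 7217 CPM in KO and 9642 to 10530 CPM in Myc females, and from 4917 to 7997 CPM in KO and 9356 to 10270 CPM in Myc males. Glutamatergic genes (4 of 10 lower in females, 5 in males) and inhibitory neuron genes (8 of 10 in each sex) fell in part, and microglial genes rose (9 of 10 in each sex, medians of 1.69 and 1.78). Astrocyte genes rose too (7 of 10 in each sex), and all 10 choroid plexus genes were higher in KO females, where 2 of the 4 KO libraries exceeded 1000 CPM of Ttr, and none in males. Oligodendrocyte genes were higher for 6 of 10 in females and 4 in males, oligodendrocyte precursor genes for 7 and 5, endothelial genes for 8 and 5, genes of mural cells and fibroblasts for 8 and 4, and genes of thalamus and striatum for 4 and 1, with 1 of the last lower in males. What these shifts contribute to the channel values was not tested.

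Long genes were more often lower over all genes. Of all genes that span more than 100 kb, 28.9% were lower in KO females and 26.1% in KO males, against 11.1% and 9.68% of genes under 10 kb. Of the 18 members over 100 kb, 77.8% were lower in females and 72.2% in males, and of the 12 members between 10 and 100 kb 50% were lower in each sex, where 18.6% of all genes of that span were lower in females and 18.0% in males. No member spans less than 10 kb. The labels number the samples, and the median fold change of the members called lower was also read within ranges of these numbers, with no test, since the calls come from the same mice. In females it was -0.92 in the low range (2 KO mice, 1 Myc mouse) and -0.41 in the middle range (2 and 2). In males it was -0.77 in the low range (2 KO mice, 1 Myc mouse), -0.46 in the middle range (1 and 2) and -0.38 in the high range (1 and 1). What the number ranges stand for is not stated.

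Genes whose proteins dock on or regulate these channels were read as a second list. Of 31 such genes 18 were lower and 4 higher in KO females, where 16.5% of all genes tested were lower and 18.1% higher, and 17 were lower and 3 higher in KO males, where 14.4% of all genes were lower and 17.2% higher. The 4 genes with the smallest p were Gem, Rrad, Rest and Prkaca, and 3 of these rose. Gem and Rrad encode small GTPases that bind calcium channel beta subunits and inhibit the current. Gem had 12.4, 9.95, 4.81 and 7.60 CPM in the female KO mice, against 1.45, 1.07 and 1.32 CPM in the Myc mice (2.75 ± 0.36, adjusted p = 2.52e-07). In male mice it had 7.60, 8.02, 6.01 and 6.48 CPM in KO mice, against 1.36, 2.19, 1.70 and 1.95 CPM in Myc mice (1.97 ± 0.31, adjusted p = 3.55e-06). Rrad averaged 3.42 ± 0.739 CPM in KO and 0.885 ± 0.469 CPM in Myc females, and 3.44 ± 0.720 CPM in KO and 0.928 ± 0.191 CPM in Myc males (SD), and was higher in both (1.91 ± 0.29 and 1.89 ± 0.26, adjusted p = 3.34e-06 and 3.51e-07). Rest, a repressor of neuronal genes that include sodium channel genes, averaged 12.2 ± 1.89 CPM in KO and 5.40 ± 0.439 CPM in Myc females, and 12.03 ± 2.09 CPM in KO and 6.38 ± 0.927 CPM in Myc males (1.17 ± 0.22 and 0.92 ± 0.19, adjusted p = 5.07e-05 and 0.00030). Prkaca, the catalytic subunit of protein kinase A, fell by 0.49 ± 0.10 in females and 0.43 ± 0.09 in males on the log2 scale. The fourth gene higher in females was Nfasc (0.23 ± 0.08, adjusted p = 0.027), which builds the axon initial segment.

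With H2A.Z.1 put back, many of these genes stood above their KO level. Against KO, 10 members were higher with WT, 13 with KA and 7 with KQ in females, where 5.36%, 5.63% and 5.36% of all genes were higher. In males 12 were higher with WT, 6 with KA and 20 with KQ, against 7.44%, 5.86% and 8.72% of all genes. In each of these 6 comparisons 1 member was lower, Cacna1s, against 9.17% of all genes with WT, 9.62% with KA and 7.63% with KQ in females, and 12% with WT, 9.94% with KA and 12.7% with KQ in males. The median log2 fold change of the 30 members ran from 0.28 with KA in males to 0.39 with KQ in males. All of these comparisons share their KO mice. The counts moved with single mice. In females WT fell to 5 or 6 calls without KO mouse 13 or 14 and to 5 without WT mouse 39, KA to 4 to 6 without KO mouse 13 or 14 or KA mouse 35 or 36, and KQ to 4 without KO mouse 13 or KQ mouse 37 or 38, while KQ reached 13 without KQ mouse 17 or KO mouse 33. In males WT fell to 5 without KO mouse 4, KA reached 13 without KO mouse 42, and KQ fell to 10 without KO mouse 3 and to 6 without KO mouse 4. The count of lower members in females reached 0 without KO mouse 13 (KA and KQ) or KQ mouse 37 (KQ), and 2 for KA without KA mouse 16 or KO mouse 33 or 34 and for KQ without KO mouse 33. In males it reached 2 without KO mouse 21 (KA and KQ), KO mouse 42 or KQ mouse 8 (KQ).

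Scn2b, Cacna1g and Cacnb3 were called higher than KO in all 6 comparisons. Scn2b averaged 258 ± 21.9 CPM with WT, 256 ± 26.3 CPM with KA and 255 ± 34.4 CPM with KQ in females, against 186 ± 54.1 CPM in KO (log2 fold changes of 0.46 to 0.47). In males it averaged 273 ± 16.2, 271 ± 29.0 and 294 ± 30.1 CPM with WT, KA and KQ, against 205 ± 39.9 CPM in KO (0.41 to 0.53). Cacnb3 averaged 134 ± 12.8, 139 ± 26.0 and 146 ± 17.8 CPM in females with WT, KA and KQ, against 106 ± 14.7 CPM in KO. In males Cacnb3 averaged 139 ± 14.9, 150 ± 11.6 and 133 ± 18.7 CPM with WT, KA and KQ, against 105 ± 9.49 CPM in KO. Both genes remained below the Myc means, which were 307 ± 2.82 and 320 ± 18.0 CPM for Scn2b and 165 ± 17.2 and 157 ± 16.3 CPM for Cacnb3 in females and males, though none of these differences from Myc was called. In females the Scn2b calls were lost without KO mouse 13 or 14 with every form, WT mouse 39, KA mouse 36 or KQ mouse 37 or 38 (adjusted p of up to 0.208), and without KA mouse 35 (0.0501). The female Cacnb3 calls were lost without KO mouse 13 with every form (0.0601 to 0.183), KO mouse 14 with WT and KA, WT mouse 19, 39 or 40, KA mouse 35 or KQ mouse 37. Those with WT and KA were also lost without the mice above 1000 CPM of Ttr. In males the Scn2b calls were lost without KO mouse 4 with WT and KA, or without KO mouse 3 or KA mouse 25, 26 or 43 with KA, and the Cacnb3 call with KQ without KO mouse 3 or 4 or KQ mouse 45.

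**Figure D4:**
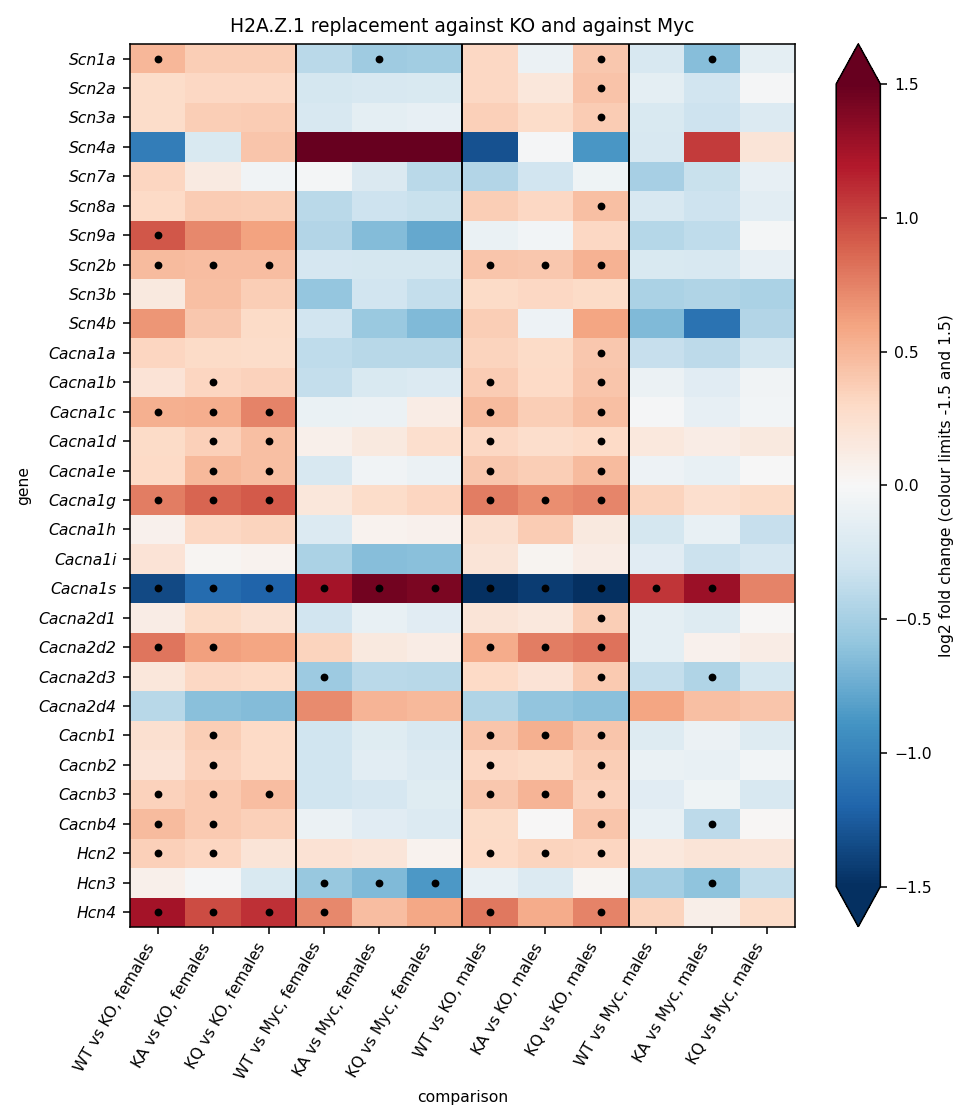
Log2 fold change of each member for WT, KA and KQ replacement against KO and against Myc, females in the left columns and males in the right ones; red is higher and blue lower in the replacement group, colours stop at 1.5 in either direction, and black dots mark adjusted p under 0.05. Most members are higher than KO, Cacna1s is lower than KO in all 6 columns, and few dots stand in the columns against Myc.

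The T-type gene Cacna1g and several others stood at or above the Myc level rather than below it. Cacna1g had 31.2, 31.4, 42.0 and 23.0 CPM with WT, 23.0, 24.5, 54.0 and 36.6 CPM with KA and 29.2, 29.8 and 47.6 CPM with KQ in females, against 18.0, 17.8, 22.4 and 17.0 CPM in KO. All 11 mice with replacement lay above the KO range, and the log2 fold changes were 0.77, 0.88 and 0.92. In males every replacement mouse again lay above every KO mouse (0.77 with WT, 0.69 with KA and 0.73 with KQ). Their means were 31.2 ± 4.04, 29.6 ± 2.61 and 30.4 ± 7.12 CPM, against 24.8 ± 2.02 CPM in the Myc mice, a difference that was not called. The call against KO was lost without WT mouse 39, KA mouse 35 or KQ mouse 38 in females and, for KA in males, without KO mouse 3 or KA mouse 25 or 26.

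In females Hcn4 had the largest rise over KO among the members. It had 2.08, 2.98, 4.04 and 2.42 CPM with WT, 2.62, 2.06, 2.23 and 2.67 CPM with KA and 2.55, 2.87 and 2.39 CPM with KQ in females, against 0.754, 1.29, 1.26 and 1.55 CPM in KO. The log2 fold changes were 1.24 ± 0.22 with WT, 0.98 ± 0.22 with KA and 1.09 ± 0.23 with KQ (adjusted p = 0.00020, 0.0023 and 0.0019). Each of these groups also lay above the Myc range of 1.377 to 2.02 CPM, and for WT the difference from Myc was called (0.73 ± 0.24, adjusted p = 0.045). That call against Myc was lost without any of WT mice 20 and 39 or Myc mice 11, 31 and 32. The female call of KQ against KO was lost with only the compared groups in the fit (adjusted p = 0.0641, edgeR). Hcn4 had few reads, 28 to 58 in the female KO mice. In males Hcn4 was higher than KO with WT (0.80 ± 0.21, adjusted p = 0.0047) and KQ (0.74 ± 0.21, adjusted p = 0.0076). Hcn2, not called in KO vs Myc, averaged 116 ± 10.2, 113 ± 9.66 and 103 ± 7.47 CPM with WT, KA and KQ in females, against 90.0 ± 4.63 CPM in KO, and was called with WT and KA. In males it averaged 112 ± 12.3, 115 ± 9.00 and 114 ± 14.9 CPM, against 91.3 ± 6.66 CPM in KO, and was called with all 3 forms. The Hcn2 calls were lost without KA mouse 16 in females, and in males without KO mouse 4 with every form, WT mouse 46 or KA mouse 43 (adjusted p of 0.0516 to 0.0845). Gm66204, on the other strand, overlaps 8.57% of its exon length.

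Cacna1d, Cacna2d2 and Cacna1c shared this pattern in part. Cacna1d averaged 51.5 ± 3.36, 54.2 ± 1.97 and 57.9 ± 3.42 CPM with WT, KA and KQ in females, against 42.2 ± 2.84 CPM in KO, and was called with KA and KQ, and in males with WT and KQ. Cacna2d2 averaged 31.2 ± 9.80, 27.4 ± 5.60 and 26.8 ± 7.75 CPM in females, against 17.8 ± 3.67 CPM in KO, and was called with WT and KA, and with all 3 forms in males. Its calls were lost for KA in females without KO mouse 13 or 14 or KA mouse 36 (adjusted p of 0.104 to 0.142) and for WT in males without KO mouse 3, 4 or 21 or WT mouse 10 or 30 (0.0546 to 0.128). Those of Cacna1d were lost for KA in females without KO mouse 14 (0.0697) and in males without KO mouse 3 or 21 for both forms, WT mouse 9 or 29 or KQ mouse 44 (0.0706 to 0.104). Cacna1c had 57.8 to 68.2 CPM with WT, 56.6 to 73.9 CPM with KA and 69.5 to 81.2 CPM with KQ in females, all above the 40.3 to 49.2 CPM of KO, and was called in 5 of the 6 comparisons. In males its calls with WT and KQ were lost without KO mouse 3 or 4, and with KQ also without KQ mouse 44 (adjusted p of 0.0508 to 0.0735). Without the mice above 1000 CPM of Ttr, the female Cacna2d2 calls with WT (adjusted p = 0.106, edgeR) and KA were lost. Under the same setting Cacna1c lost its female call with WT (0.0635), and Cacna1d those with KA (0.157) and KQ (0.0585). WT mouse 20, which this setting leaves out, had the highest Cacna2d2 value, 44.2 CPM. Chdh overlaps 9.72% of the exon length of Cacna1d on the other strand.

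**Figure D5:**
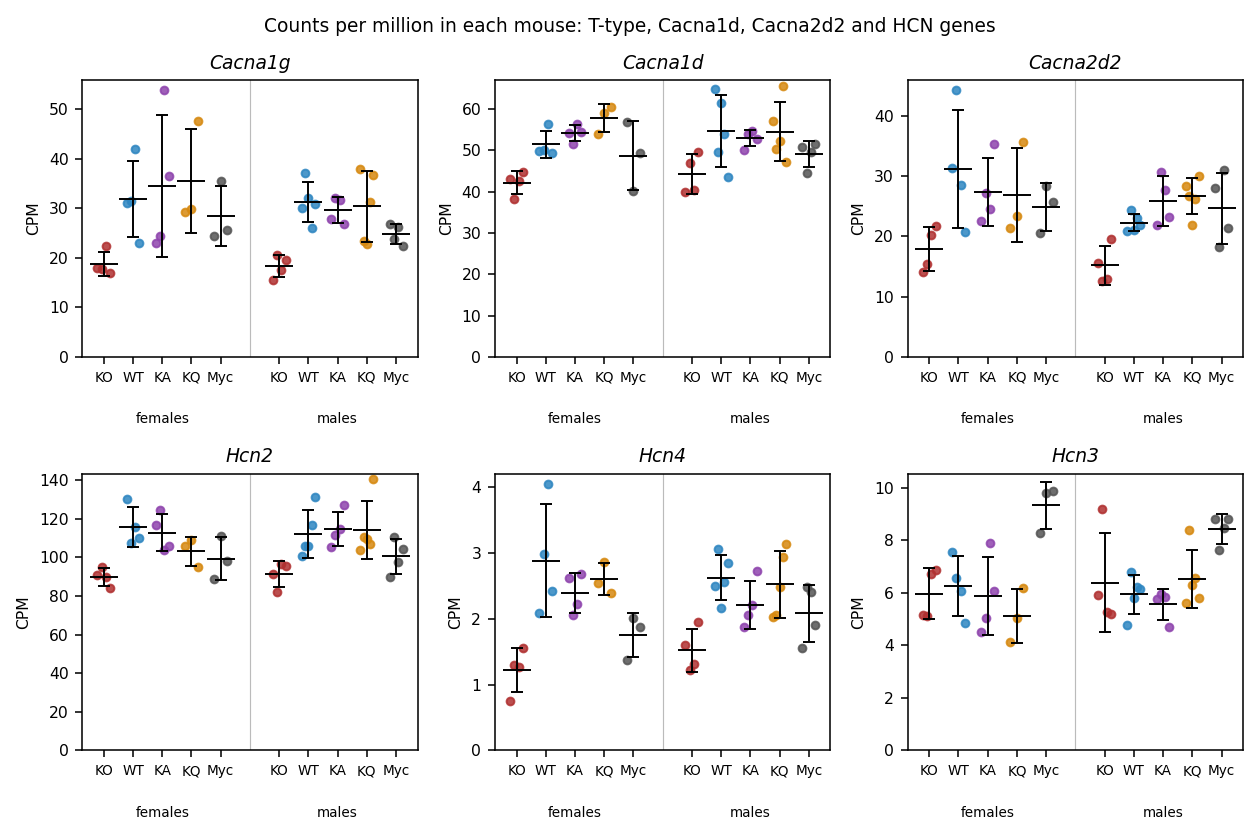
CPM in each mouse for Cacna1g, Cacna1d, Cacna2d2, Hcn2, Hcn4 and Hcn3, with KO, WT, KA, KQ and Myc from left to right for females and then males; dots are mice and black bars are the mean ± SD. In the first 5 genes the replacement means lie above KO and near or above Myc, whereas Hcn3 stays near its KO mean of 5.97 CPM in females and 6.39 CPM in males.

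Hcn3 behaved otherwise. With WT, KA and KQ it averaged 6.26 ± 1.14, 5.87 ± 1.49 and 5.11 ± 1.04 CPM in female mice, and 5.94 ± 0.749, 5.56 ± 0.585 and 6.52 ± 1.11 CPM in male mice, against 5.97 ± 0.958 CPM in female KO and 6.39 ± 1.90 CPM in male KO mice. None of these differed from KO, and Hcn3 was lower than the 9.32 ± 0.899 CPM of Myc females with WT (-0.57 ± 0.19, adjusted p = 0.048), KA (-0.66 ± 0.19, adjusted p = 0.024) and KQ (-0.87 ± 0.20, adjusted p = 0.010). In males it was lower than the 8.42 ± 0.558 CPM of Myc with KA (-0.60 ± 0.18, adjusted p = 0.026). These calls were lost without single mice: Myc mouse 31 or 32 with WT and KA, Myc mouse 11 or WT mouse 20, 39 or 40 with WT, KA mouse 15 or 16 with KA and KQ mouse 17 with KQ in females, and Myc mouse 1, 23 or 41 or KA mouse 5 or 43 in males (adjusted p of 0.0538 to 0.149).

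Few members differed from Myc after replacement. In females 2 were lower with WT (Cacna2d3 and Hcn3), 2 with KA (Scn1a and Hcn3) and 1 with KQ (Hcn3), against 3.52%, 3.23% and 2.08% of all genes. In males none was lower with WT, 4 were with KA (Scn1a, Cacna2d3, Cacnb4 and Hcn3) and none with KQ, against 1.68%, 2.74% and 1.65% of all genes; 6 members each were under an unadjusted p of 0.05 in either direction with WT and KQ, and DESeq2 called 1 lower with WT and none with KQ. Higher than Myc were Cacna1s and Hcn4 with WT and Cacna1s with KA and KQ in females, against 5.87%, 4.42% and 3.59% of all genes, and Cacna1s with WT and KA but none with KQ in males, against 3.66%, 5.15% and 3.48%. These counts moved with single mice. In females the count of lower members reached 0 without WT mouse 20 or Myc mouse 31 for WT, KA mouse 15 or 16 or Myc mouse 32 for KA, and KQ mouse 17 for KQ. It was 1 for WT without Myc mouse 11 or 32 or WT mouse 19 or 39 and for KA without Myc mouse 31 or KA mouse 35, 4 for KA without KA mouse 36, and 2 for KQ without Myc mouse 11 or KQ mouse 37. The count of higher members in females reached 0 without Myc mouse 31 for every form, without Myc mouse 32 for WT and KQ, without WT mouse 20 and without KQ mouse 17, and 1 for WT without Myc mouse 11 or WT mouse 39. In males the count of lower members for KA was 1 or 2 without Myc mouse 1, 23 or 41 or KA mouse 5 or 26.

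Cacna1s ended between KO and Myc. With WT, KA and KQ it averaged 1.35 ± 0.53, 1.56 ± 0.297 and 1.51 ± 0.197 CPM in females, against 3.46 ± 1.45 CPM in KO, with log2 fold changes of -1.36 ± 0.29, -1.16 ± 0.29 and -1.20 ± 0.31 (adjusted p = 0.0012, 0.0053 and 0.0094). In males it averaged 1.29 ± 0.230, 1.49 ± 0.496 and 1.03 ± 0.390 CPM, against 3.97 ± 0.413 CPM in KO, with -1.63 ± 0.27, -1.42 ± 0.29 and -1.95 ± 0.27 (adjusted p = 2.37e-05, 0.00056 and 2.21e-06). In females the calls with KA and KQ were lost without KO mouse 13, and the call with KQ also without KQ mouse 37. Against Myc, which averaged 0.557 ± 0.150 CPM in female and 0.612 ± 0.195 CPM in male mice, Cacna1s was 2.37-, 2.73- and 2.65-fold higher in females with WT, KA and KQ and 2.11- and 2.43-fold higher in males with WT and KA (adjusted p of 0.0057 to 0.024). Each of these 5 calls was lost without single mice: Myc mouse 31 in all female comparisons, Myc mouse 32 with WT and KQ, WT mouse 20 and KQ mouse 17 in females, and Myc mouse 1, 23 or 41 or WT mouse 10 or 29 with WT and KA mouse 5 with KA in males (adjusted p of 0.0589 to 0.106). T cell genes were lower with every form than in KO (10 of 10 in each comparison), with sums of 10.9 to 14.4 CPM with WT, 8.26 to 16.7 CPM with KA and 9.63 to 19.6 CPM with KQ in females. In males these sums were 6.27 to 11.1, 8.14 to 31.4 and 6.83 to 24.2 CPM. Cacna2d4 was not called with any form, with log2 fold changes of -0.65 to -0.42 in females and -0.62 to -0.45 in males against KO. The nearest to the threshold was KQ in males (adjusted p = 0.052).

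Gem, Rrad and Rest were lower than KO with every form in both sexes, the only 3 of the 31 partner genes called lower in these comparisons. Gem averaged 3.59 ± 0.798, 4.18 ± 1.26 and 3.69 ± 1.52 CPM with WT, KA and KQ in females, against 8.69 ± 3.24 CPM in KO, and remained above the 1.28 ± 0.194 CPM of Myc (adjusted p = 0.0075, 0.0025 and 0.011).

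The acetyl-defective and acetyl-mimic forms were then compared directly. No member differed between KA and KQ in either sex, and no gene did (0% of all genes tested in females and 0% in males). At an unadjusted p under 0.05 there were 0 members and 595 genes in females and 3 members and 2993 genes in males, and DESeq2 called no member, with 8 genes in females and 24 in males over the whole table. The 3 members in males were Scn1a (88.5 ± 15.7 CPM with KA, 124 ± 16.9 CPM with KQ, log2 fold change -0.49 ± 0.14, adjusted p = 0.35), Cacnb4 (63.3 ± 9.85 CPM with KA, 84.4 ± 11.0 CPM with KQ, -0.41 ± 0.12, adjusted p = 0.35) and Scn2a (235 ± 18.8 CPM with KA, 283 ± 46.7 CPM with KQ, -0.26 ± 0.11, adjusted p = 0.42). In females the same genes differed by -0.01 ± 0.16 for Scn1a, 0.04 ± 0.14 for Cacnb4 and 0.00 ± 0.13 for Scn2a. The difference between the sexes in KA against KQ was not tested.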

How the data were processed

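The deposited file used here held raw gene counts of 40 mice, 1 library each. Per the labels and methods, the authors checked reads with FastQC 0.11.9, aligned paired reads with Rsubread to GRCm39 and counted them with featureCounts; the strand setting was not given in the sources used here. A table normalized with DESeq2 1.38.3 by the authors was not used. From the counts, genes whose counts over all mice added up to 20 or more were kept (28449 of 40853), scaled by TMM and tested with edgeR 4.0.16 (quasi-likelihood, robust, 10 group means, R 4.3.3), with Benjamini-Hochberg adjustment over all genes tested and calls at an adjusted p under 0.05 at any fold. CPM are TMM-scaled and errors of fold changes are standard errors. Replicates are separate mice. The scripts were tested on simulated data. Alternatives were DESeq2 1.42.0, its size factors, only the groups compared, other count filters, a fit without robust estimation, sample-number range as a covariate, leaving out mice above 1000 CPM of Ttr, and leaving out each mouse. All members are described; of the partner genes the 4 with the smallest p are named, and Nfasc was named after its values were seen. The members and lists were chosen with earlier results of these data known. Spans and overlaps come from GRCm39 annotation and promoters from RefSeq on GRCm38.p6. Figures were drawn with Python 3.11.15 and matplotlib 3.10.9.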

Additional observations from a re-analysis of the deposited data

Results flagged for a closer look

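In 16 of 240 gene and group combinations 1 mouse stood apart from the others of its group, where chance at 1 in 20 gives about 12. All values are CPM.

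In the male KO group mouse 42 stood high for Scn7a (1.988, the others 0.757 to 0.8416), Scn9a (3.673, the others 1.146 to 1.541) and Cacna1c (63.78, the others 40.2 to 43.74). In the male Myc group mouse 41 stood high for Cacna2d1 (296.9, the others 268 to 272.8). With WT, male mouse 46 stood low for Scn7a (0.1962, the others 0.8227 to 1.017) and Cacna2d1 (222.2, the others 254.2 to 259.5), and female mice 39 and 20 stood high for Cacna1d (56.47, the others 49.34 to 50.11) and Cacna2d4 (3.853, the others 3.058 to 3.068).

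With KA, female mouse 35 stood high for Cacna1h (170.1, the others 71.56 to 86.2). Male KA mouse 5 stood high for Cacna1s (2.226, the others 1.191 to 1.311) and low for Cacnb2 (65.45, the others 70.72 to 71.24), and male KA mouse 43 stood low for Hcn3 (4.691, the others 5.742 to 5.956). With KQ, male mouse 8 stood low for Scn1a (95.05, the others 127.4 to 138.4) and Cacna1i (17.2, the others 32.62 to 37.29), mouse 44 stood high for Cacnb2 (94.31, the others 64.27 to 71.56) and mouse 45 for Hcn2 (140.4, the others 104 to 110.3).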

How the results depend on the processing

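Counts below are of members called. Against the main counts, other settings moved these by over 1.5 times. With DESeq2 in place of edgeR, 2 were lower for KA against KO and 4 for KA and 2 for KQ against Myc in females, and 2 for KQ against KO and 1 for WT against Myc in males. With only the compared groups in the fit, females had 4 higher for KA and 2 higher and 0 lower for KQ against KO, 0 higher for WT and 0 lower and 0 higher for KQ against Myc; males had 8 higher for KQ against KO, and against Myc 7 lower and 2 higher for WT, 11 lower for KA and 3 lower for KQ. With every gene that had a count, 1 was lower and 1 higher for WT against Myc in females. With edgeR's filterByExpr, 2 were lower and 2 higher for KQ against Myc in females and 2 lower for KQ against KO in males. With the range of the sample number as covariate, against Myc 5 were lower for WT, 5 for KA and 6 lower and 2 higher for KQ in females, and 2 were lower for WT, 8 for KA and 2 for KQ in males. Without the mice above 1000 CPM of Ttr, females had 6 higher for WT and 8 for KA against KO, and against Myc 1 lower and 0 higher for WT, 4 lower for KA and 0 lower and 0 higher for KQ; males had 2 lower for KQ against KO and 1 lower for WT against Myc. The causes were not tested.

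Leaving out single mice gave 16 to 21 lower and 2 to 3 higher for KO against Myc in females and 16 to 19 lower and 2 higher in males. Against KO it gave 5 to 12 higher for WT, 0 to 2 lower and 4 to 17 higher for KA and 0 to 2 lower and 4 to 13 higher for KQ in females, and 5 to 16 higher for WT, 1 to 2 lower and 4 to 13 higher for KA and 1 to 2 lower and 6 to 20 higher for KQ in males. Against Myc it gave 0 to 2 lower and 0 to 2 higher for WT, 0 to 4 lower and 0 to 1 higher for KA and 0 to 2 lower and 0 to 1 higher for KQ in females, and 0 to 1 higher for WT and 1 to 3 lower and 0 to 1 higher for KA in males. In KO against Myc, only Scn7a changed sign when single mice were left out. Its log2 fold changes ran from -0.7495 to 0.008583 in females and from -0.4806 to 0.2443 in males. The other positive ones in males were 0.08753, 0.08468 and 0.05412. For the replacement groups against KO or Myc, signs were followed only for members called there, and none of these turned.

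No paired analysis was possible because no group shares mouse numbers with another. Low counts limit Scn4a, with 0 to 15 reads in KO and Myc mice.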
